A study of Mus musculus with 6 samples.

Results

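The genes described here are the NR4A nuclear receptor genes Nr4a1, Nr4a2 and Nr4a3 and the EGR zinc finger genes Egr1, Egr2 and Egr3, 6 of the 49315 genes in each count file. They were chosen by measured values, as 2 families of early response factors that were high in 1 knockout library, so their levels and their KO against WT contrast are given as a description and support nothing. Granulosa cells, the somatic cells that surround the oocyte in the ovarian follicle, came fresh from ovaries of C57BL/6J mice aged 8 to 9 weeks. One group of 3 libraries was labelled wild type (WT) and the other group of 3 was labelled Jmjd3 knock out (KO), with the deletion stated to be specific to granulosa cells. JMJD3, also named KDM6B, is a histone demethylase that removes methyl groups from lysine 27 of histone H3. The sources used here do not give the Cre driver, the deleted exons, the cycle stage of the females or whether hormones were injected. Nor do they say whether each library came from a separate animal.

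NR4A receptors are orphan nuclear receptors whose activity follows mainly from how much of the protein is made, because their ligand pocket is filled by bulky side chains. EGR proteins carry 3 C2H2 zinc fingers that bind a GC-rich DNA element. Both families are immediate early genes: their transcription starts within minutes of a signal without new protein synthesis, through CREB bound at cyclic AMP response elements (CRE) and through serum response factor bound at CArG boxes. In the ovary the surge of luteinizing hormone (LH) before ovulation is a known inducer of both families in granulosa cells.

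All libraries were of similar depth, with 42379018 (KO replicate 2) to 49901493 (WT replicate 1) gene counts in total. KO replicate 3 stood apart, with a correlation of log2 CPM with the other libraries across genes of 0.986 to 0.989, where the other pairs lay between 0.990 and 0.994. Of the 10 granulosa cell markers, all had counts in the libraries, and their summed level was 13510 to 15210 CPM (counts per 1000000 of the scaled library size) in WT and 15960, 15050 and 20390 CPM in KO replicates 1 to 3, most of it from Inha and Gja1. Of these 10 markers 2 were called lower in KO by edgeR and by DESeq2: Amhr2, the receptor gene for anti-Müllerian hormone (log2 fold change -1.01 ± 0.09 SE, edgeR adjusted p = 0.00212), and the transcription factor gene Wt1 (-0.54 ± 0.07, adjusted p = 0.0246). Over all tested genes edgeR called 0.0932% lower in KO. DESeq2 called 1.24% of the genes to which it gave an adjusted p, in either direction. Kdm6b, the targeted gene, ranged from 66.2 to 72.8 CPM in WT, and KO replicates 1, 2 and 3 had 64.7, 68.6 and 112 CPM. Its log2 fold change, KO minus WT, was 0.26 ± 0.22 (SE) and was not called by edgeR. A whole-gene count cannot check the labels without knowing the deleted exons, so WT and KO below stand for the libraries labelled so.

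Of the 6 genes, 4 had a promoter window that could be shown, in the RefSeq table on GRCm38.p6. The stretches below are those that hold short motifs for the factors named above, since the genes were high together in 1 library. Each is read 5′ to 3′ on the strand of the gene. Capitals in the NR4A stretches mark the CRE half-site TGACG, read on either strand, and in Nr4a1 also 1 EGR element, GCGGGGGCG, which appears as its reverse complement CGCCCCCGC. In Egr2 they mark 2 CRE half-sites and, between them, a CArG box. The Nr4a1 and Egr2 stretches lie inside the GENCODE M21 gene models but outside their exons, the Nr4a2 stretch lies upstream of the gene, and 20 bases of the Nr4a3 stretch lie in an exon at its 5′ end.
Nr4a1, chr15:101266603-101266820, plus strand: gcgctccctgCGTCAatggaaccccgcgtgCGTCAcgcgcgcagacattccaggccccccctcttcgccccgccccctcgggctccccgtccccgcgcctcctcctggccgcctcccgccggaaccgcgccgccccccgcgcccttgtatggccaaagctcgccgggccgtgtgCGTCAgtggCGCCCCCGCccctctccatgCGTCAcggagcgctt
Nr4a2, chr2:57124100-57124213, minus strand: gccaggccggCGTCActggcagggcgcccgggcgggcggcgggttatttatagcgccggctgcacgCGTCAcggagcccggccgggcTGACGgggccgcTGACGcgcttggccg
Nr4a3, chr4:48045064-48045172, plus strand: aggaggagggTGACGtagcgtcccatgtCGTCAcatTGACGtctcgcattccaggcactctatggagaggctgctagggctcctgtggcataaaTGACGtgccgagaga
Egr2, chr10:67537748-67537828, plus strand: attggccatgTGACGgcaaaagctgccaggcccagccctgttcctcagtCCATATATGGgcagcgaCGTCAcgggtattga

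Each of the 3 NR4A windows held 4 CRE half-sites. At least 4 were found in 0.231% of the 32851 promoter windows of the same 300 bases (250 before and 50 after the start), and at least 1 in 20.8%. Counted from the RefSeq start, the half-sites began at positions -233, -213, -69 and -40 in Nr4a1, at -200, -144, -123 and -111 in Nr4a2, and at -231, -213, -205 and -147 in Nr4a3. The Egr2 window at 67537619 to 67537918, the first of 3 overlapping windows that hold both motifs among its 5, had half-sites at -111 and -55 and a CArG box at -72. The Egr2 window at 67537316 to 67537615 held a separate CArG box, at -72 from its own start, and 0 half-sites. A CArG box was found in 1.63% of all windows, GCGGGGGCG in 2.91% and GCGTGGGCG in 0.612%. The full palindromic CRE, TGACGTCA, which holds 2 overlapping half-sites, and AAAGGTCA, the element that an NR4A receptor binds as a monomer, were in none of the 4 genes' windows and in 1.79% and 1.51% of all windows. These are matches of letters only, and binding was not measured.

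Nr4a1 (chromosome 15, 101266846 to 101274792, GRCm38), whose product NUR77 is induced by gonadotropins in steroid-producing cells, was the most abundant NR4A RNA. WT replicates 1, 2 and 3 had 50.2, 43.2 and 69.7 CPM, and KO replicates 1, 2 and 3 had 48.8, 73.2 and 763 CPM. KO replicate 3 was thus 14.0 times the WT mean of 54.4 ± 13.7 CPM (SD, n = 3), while KO replicate 1 lay inside the WT range and KO replicate 2 just above it.

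Nr4a2 (chromosome 2, 57106830 to 57124003), which encodes NURR1, was low and even in 5 libraries. It stood at 4.42, 4.09 and 4.28 CPM in the WT libraries, and the KO libraries had 4.88, 4.19 and 52.4 CPM. KO replicate 3 was 12.3 times the WT mean of 4.26 ± 0.16 CPM (SD, n = 3), and the other KO libraries were within 1.15 times that mean.

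Nr4a3 (chromosome 4, 48045153 to 48086447), which encodes NOR1, stood farthest from the other libraries. It had 49, 35 and 43 counts in WT and 57, 40 and 4496 counts in KO, or 0.953, 0.735 and 0.853 CPM against 1.22, 0.942 and 93.4 CPM. KO replicate 3 was 110.3 times the WT mean of 0.85 ± 0.11 CPM (SD, n = 3) and 76.8 times the next highest library, KO replicate 1.

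Egr1 (chromosome 18, 34859823 to 34864984), the prototype of its family, was already abundant in WT and varied between the WT libraries. It stood at 174, 252 and 319 CPM in the WT libraries, and the KO libraries had 209, 163 and 644 CPM. KO replicate 3 was 2.59 times the WT mean of 248.5 ± 72.7 CPM (SD, n = 3) and 2.02 times WT replicate 3, the smallest such excess among the 6 genes.

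Egr2 (chromosome 10, 67535475 to 67542188), best known for its role in myelination, was the gene for which both other KO libraries lay below every WT library. The WT libraries had 2.37, 2.25 and 2.498 CPM, and the KO libraries had 1.34, 1.91 and 28.7 CPM. KO replicate 3 was 12.1 times the WT mean of 2.37 ± 0.13 CPM (SD, n = 3), and KO replicates 1 and 2 were 0.566 and 0.804 times that mean.

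Egr3 (chromosome 14, 70077445 to 70080157), a close relative of Egr2, was scarce. Counts were 42, 40 and 29 in WT and 24, 32 and 380 in KO, or 0.817, 0.84 and 0.575 CPM against 0.512, 0.754 and 7.89 CPM. KO replicate 3 was 10.6 times the WT mean of 0.74 ± 0.15 CPM (SD, n = 3), KO replicate 2 lay inside the WT range, and KO replicate 1 lay below it.

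**Figure D1:**
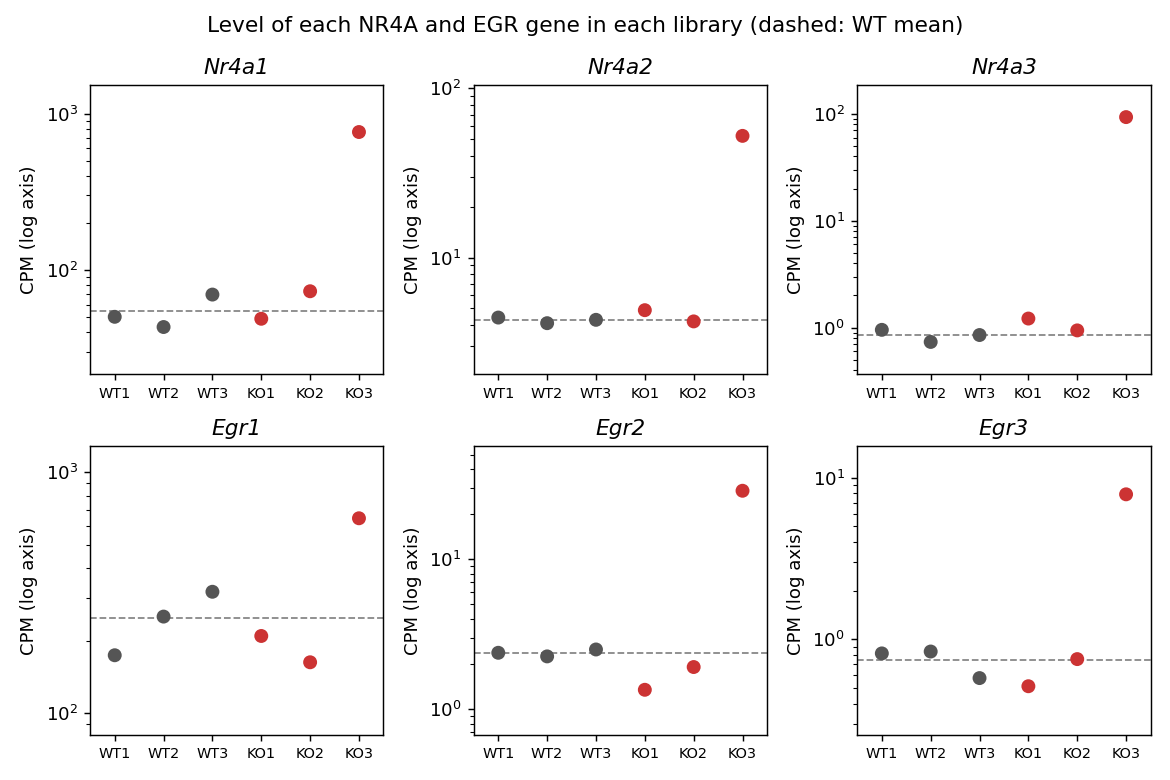
Level of each of the 6 genes in CPM, on a log axis, in WT (grey) and KO (red) libraries, with the WT mean as a dashed line and 1 point per library. KO replicate 3 is the highest library in each panel, from 2.02 times (Egr1) to 76.8 times (Nr4a3) the next highest.

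All 6 genes were highest in KO replicate 3, as were 21.8% of the 18250 genes tested. In that library 5 of the 6 were at least 4 times the WT mean, with Egr1 the exception, where 0.411% of all tested genes were. None of the 6 was that high in KO replicate 1 (0.164% of tested genes) or KO replicate 2 (0.0712%), where they ranged from 0.566 to 1.44 times the WT mean. Ordered by their difference from the WT mean on the log2 scale in KO replicate 3, Nr4a3 was in place 3 among all tested genes, Nr4a1 in place 11, Nr4a2 in place 14, Egr2 in place 15, Egr3 in place 18 and Egr1 in place 176.

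As groups, KO and WT overlapped for each of the 6 genes, whereas 15.6% of tested genes did not overlap. The fitted log2 fold changes, KO minus WT, were 2.44 ± 1.29 (SE) for Nr4a1, 2.27 ± 1.23 for Nr4a2, 5.23 ± 2.39 for Nr4a3, 0.45 ± 0.65 for Egr1, 2.17 ± 1.41 for Egr2 and 2.04 ± 1.24 for Egr3. The 95% confidence interval ran from -1.07 to 5.95 for Nr4a1 and from -1.28 to 2.17 for Egr1. At an adjusted p under 0.05 by edgeR, 0 of the 6 were called, and 0 were at an unadjusted p under 0.05. Of all tested genes 0.219% (40) were called, 0.126% as higher in KO and 0.0932% as lower, and 9.16% (1671) were at an unadjusted p under 0.05. DESeq2 called 0 of the 6 as well, where it called 1.24% of the genes to which it gave an adjusted p (221 of 17877), but it gave none to 5 of the 6, all but Egr1. A single library set these fold changes: without KO replicate 3 they were 0.16, 0.09 and 0.35 for Nr4a1, Nr4a2 and Nr4a3, and -0.42, -0.55 and -0.24 for Egr1, Egr2 and Egr3. Still 0 of the 6 was called, although the test then called 421 genes in all.

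Between genes, levels were compared as CPM per kilobase of counted exon. In WT the order was Egr1 (55.4 ± 16.2, SD, n = 3), Nr4a1 (22.0 ± 5.54), Nr4a2 (1.05 ± 0.040), Egr2 (0.698 ± 0.037), Egr3 (0.525 ± 0.104) and Nr4a3 (0.141 ± 0.018). Neighbours in that order did not overlap in their WT ranges. The nearest were Egr2, with a lowest value of 0.661, and Egr3, with a highest of 0.593. The counted models of Nr4a1 and Egr3 are shorter than those of GENCODE M21, which places Egr3 at 70077203 to 70082614, so a level per length depends on the model for these 2 genes.

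The order was different in KO replicate 3, where Nr4a1 (308.3) exceeded Egr1 (143.7), and Nr4a3 (15.6) stood above Nr4a2 (12.9), Egr2 (8.44) and Egr3 (5.57). Nr4a1 made up 93.3 to 96.1% of the summed per-length NR4A level in the other 5 libraries and 91.5% in KO replicate 3, while Nr4a3 went from 0.485 to 0.961% to 4.63%. The summed NR4A level itself was 18.6 to 30.8 in the 5 libraries and 336.8 in KO replicate 3. For the EGR genes the sum was 37.4 to 72.4 and 157.7, with the Egr1 share at 96.8 to 98.4% and 91.1%.

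**Figure D2:**
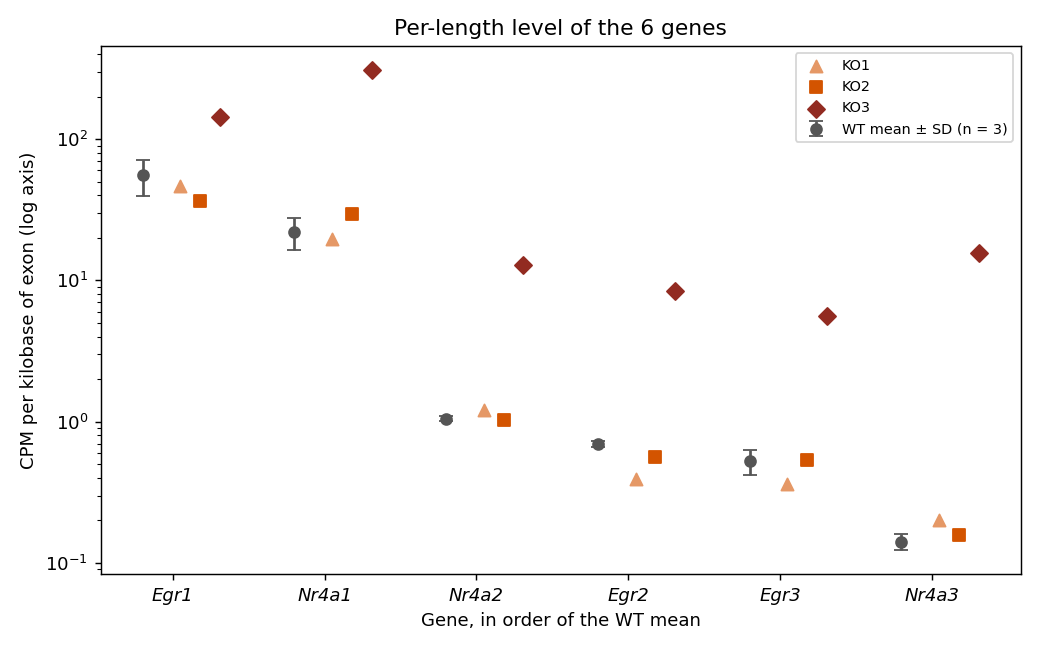
CPM per kilobase of counted exon, on a log axis, for the 6 genes in order of the WT mean (circle with SD, n = 3), with KO libraries 1 to 3 as single points. Nr4a3 is lowest in WT at 0.141 and above Nr4a2, Egr2 and Egr3 in KO replicate 3 at 15.6.

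Among the WT libraries alone the genes differed in how far they varied. The SD of log2 CPM was 0.44 for Egr1 and 0.35 for Nr4a1, larger than in 92.1% and 87.3% of tested genes. Egr3 (0.29, 81.7%) and Nr4a3 (0.18, 66.3%) were intermediate, at levels where few counts widen the spread. Egr2 (0.076, 29.3%) and Nr4a2 (0.055, 17.3%) hardly varied.

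Profiles over the 6 libraries were compared as the root mean square distance in log2 CPM after subtracting the WT mean. Each of the 6 genes differed most from its WT mean in KO replicate 3, the library in which they were chosen as high. Nearness therefore reflects mainly a like value in that single library, and it is a description that supports no shared regulation. Within the 6, Egr2 and Egr3 were closest (0.294), then Nr4a1 and Nr4a2 (0.319). Nr4a3 was at least 1.23 from each of the others and Egr1 at least 0.924, with differences from the WT mean of 6.72 and 1.42 in KO replicate 3, the largest and the smallest of the 6. Among 13150 other protein-coding genes whose mean was 1 CPM or more, the nearest to Nr4a1 were the beta-1 adrenergic receptor gene Adrb1 (0.256), the hyaluronan-binding matrix gene Tnfaip6 (0.284) and the prostaglandin receptor gene Ptger4 (0.324). Nr4a2 lay close to Adrb1 (0.0946), to Crem, which encodes the cyclic AMP-inducible repressor ICER (0.125), and to Ptger4 (0.18). For Nr4a3 the nearest were the EGF-like growth factor gene Ereg (0.702), the progesterone receptor gene Pgr (0.81) and the prostaglandin synthase gene Ptgs2 (0.829). Egr2 and Egr3 shared the hyaluronan synthase gene Has2 (0.302 for each) and Egln3, which encodes an oxygen-sensing hydroxylase (0.347 and 0.309), with Tnfaip6 (0.336) the other neighbour of Egr2 and Tnfsf11 (0.308), the gene of RANK ligand, of Egr3. Egr1 was nearest to the repressor gene Prdm1 (0.191), to Dpp10 (0.225) and to Ppp1r15a (0.237), which encodes a phosphatase subunit of the stress response.

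Most other immediate early genes were highest in KO replicate 3, by differing amounts. Of the 27 listed and tested, 24 were above every other library there, where 21.8% of all tested genes were, and 0 were below. At least 4 times the WT mean there were 8, where 0.411% of all tested genes were. The EGR family's Egr4, a scarce transcript, stood at 0.272, 0.231 and 0.238 CPM in the WT libraries, and the KO libraries had 0.512, 0.0942 and 5.75 CPM, so that KO replicate 3 was 23.3 times the WT mean. Crem stood at 9.97 to 11.7 CPM in the WT libraries, and the KO libraries had 13.1, 10.4 and 110.5 CPM. Sik1, a kinase gene induced by cyclic AMP, reached 153 CPM against 18.7 to 31.7 CPM in the other 5 libraries, and the antiproliferative gene Btg2 reached 434 CPM against 56.8 to 77.1 CPM. Klf4 (7.48 times the WT mean), Junb (5.07), Atf3 (4.07) and the neuronal activity gene Arc (12.0) completed the 8.

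The AP-1 gene Fos, named after its values were seen, did not share the pattern of Egr1 in KO replicate 3 although both are textbook CArG box genes. Fos stood at 169, 229 and 324 CPM in the WT libraries, and the KO libraries had 166, 93.9 and 236 CPM, so that KO replicate 3 lay inside the range of the other libraries. In the other 5 libraries Egr1 and Fos both had their highest value in WT replicate 3 and their lowest in KO replicate 2. KO replicate 2 was the lowest of those 5 for 9 of the 27 genes, and for 17.9% of all tested genes. Myc (-0.33 ± 0.12 SE), Fosl2 (0.76 ± 0.34) and the clock gene Per1 (0.55 ± 0.28) had the smallest p of the list in the KO against WT fit. Of the 27, 0 was called by edgeR (1, Myc, at an unadjusted p under 0.05) or by DESeq2, which gave no adjusted p for 1 of them. Just under 4 times the WT mean in KO replicate 3 was Fosb (3.96), also named after its values were seen. The median log2 fold change of the list was 0.26, against 0.004 over all tested genes.

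**Figure D3:**
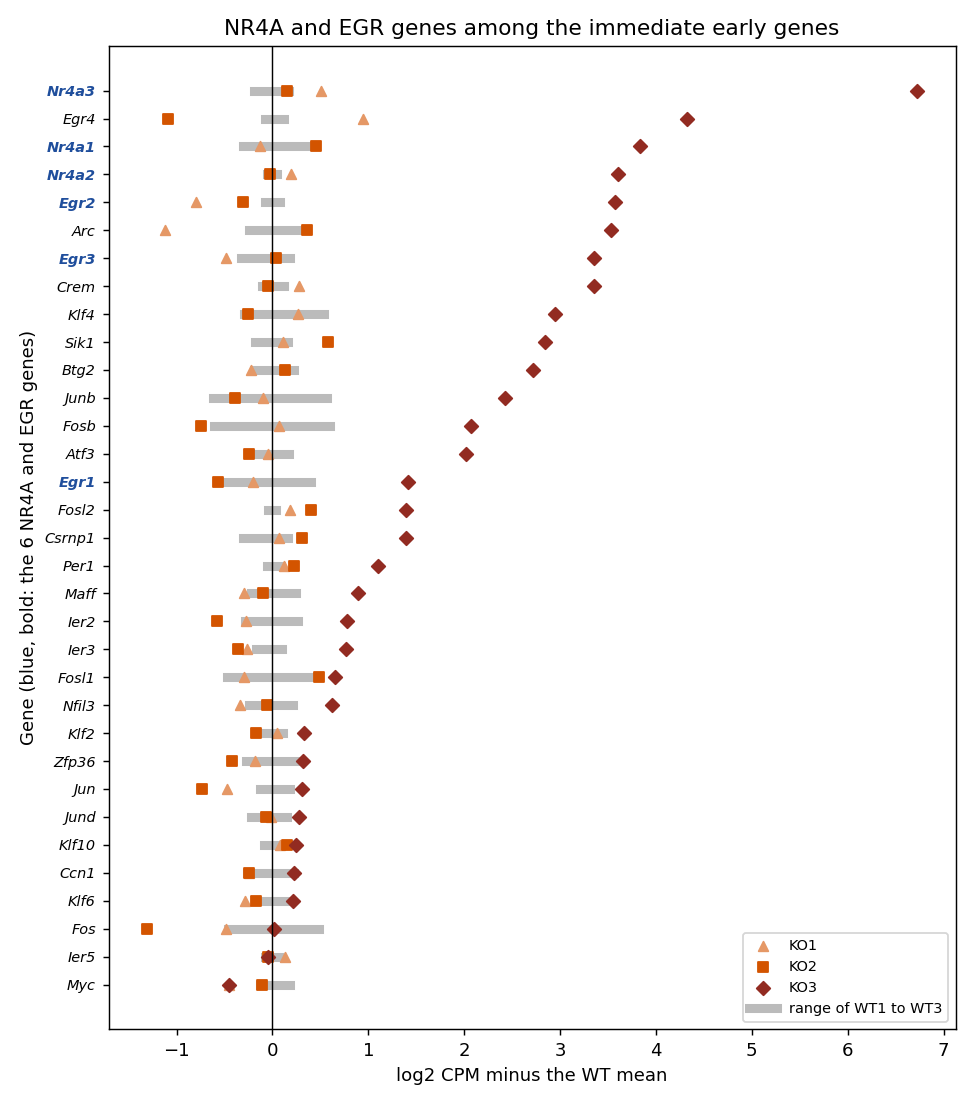
Difference from the WT mean in log2 CPM for the 6 NR4A and EGR genes (blue, bold) and 27 other immediate early genes, with KO replicates 1 to 3 as points and the WT range as a grey bar. In KO replicate 3 the genes run from Nr4a3 at 6.72 to Myc below 0, with Egr1 at 1.42 and Fos inside the WT range.

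The RNAs of the factors and kinases that act upstream of these genes differed from their WT means by -0.20 (Mapk3) to 0.43 (Rps6ka2) on the log2 scale in KO replicate 3. There 12 of the 23 were above every other library, where 21.8% of tested genes were, and 3 were below. Of these 23 genes, which include those of CREB, its coactivators, serum response factor, the ELK factors, protein kinase A and ERK, 0 was called by edgeR (1, Elk4, at an unadjusted p under 0.05) or DESeq2, and 0 was 4 times the WT mean in any KO library. The list median in KO replicate 3 was 0.12 on the log2 scale. Elk4 (0.22 ± 0.08 SE), Rps6ka2 (0.21 ± 0.11) and the protein kinase A subunit gene Prkaca (0.17 ± 0.10) had the smallest p. RNA levels do not measure the phosphorylation that activates these proteins.

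Partners and feedback genes lay closer to their WT means in KO replicate 3 than the 6 genes did. The 6 were chosen as high in that library, so this contrast follows from the choice. Nab2, a corepressor that binds EGR proteins and is also induced by them, stood at 35.0, 39.1 and 35.2 CPM in the WT libraries, and the KO libraries had 33.6, 34.0 and 66.0 CPM, or 1.81 times the WT mean in KO replicate 3. The retinoid receptor gene Rxrb, a dimer partner of NR4A receptors (-0.06 ± 0.07 SE), and Nr5a1, the gene of steroidogenic factor 1 (0.26 ± 0.08), were the other 2 of smallest p, and 0 of the 6 tested partners was called by edgeR (1, Nr5a1, at an unadjusted p under 0.05) or DESeq2. Rxrg was too scarce to be tested. Among 10 inhibitors of MAP kinase signalling 0 was called by edgeR (0 at an unadjusted p under 0.05) or DESeq2. In KO replicate 3, 7 of the 10 were highest, where 21.8% of tested genes were, with a list median of 0.39 there on the log2 scale. The farthest from its WT mean there was Dusp6, named after its values were seen, at 34.2 CPM or 2.19 times that mean. The examples of smallest p were Spry2 (0.30 ± 0.15 SE), Spry4 (-0.22 ± 0.12) and Spred1 (0.11 ± 0.08).

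Of 12 genes described as NR4A or EGR targets, 11 had a positive log2 fold change, as had 9294 of the 18250 tested genes. They did not share one order of the KO libraries. Of the 12, 0 was called by edgeR. At an unadjusted p under 0.05 there were 8 of the 12, where 9.16% of all tested genes were. DESeq2 called 2, Star and Akr1c18, where it called 1.24% of genes. The groups did not overlap for 8 (15.6% of tested genes), and the median log2 fold change was 0.50. Akr1c18, whose enzyme inactivates progesterone and which NUR77 is known to induce, stood at 9.81, 12.9 and 5.75 CPM in the WT libraries, and the KO libraries had 854, 454 and 67.55 CPM. Among the KO libraries it was lowest in KO replicate 3, where the 6 genes were highest, but it was still 7.13 times its WT mean there. A link to the 6 genes was not tested. Star, whose protein carries cholesterol into mitochondria, was at 387, 340.0 and 392 CPM in the WT libraries, and the KO libraries had 1165, 760 and 617 CPM, again lowest of the KO libraries in KO replicate 3. Tgfb1 had a log2 fold change of 0.28 ± 0.08 (SE). The aromatase gene Cyp19a1 did stand highest in KO replicate 3, at 1113 CPM against 190.1 to 319 CPM elsewhere. Of the 12, Cyp17a1 and Insl3 are also theca cell markers. The 4 theca markers summed to 163 to 234 CPM in WT and to 403, 269 and 290 CPM in KO, but only 2 of the 4 had a positive fold change. Cyp17a1 had 82.0, 135 and 69.6 CPM in WT and 315.5, 174 and 203 CPM in KO. Ptch1 had 85.8, 91.8 and 88.2 CPM in WT and 80.4, 89.3 and 79.0 CPM in KO. The part of theca cells in the target genes' levels was not tested.

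Several genes that the LH surge induces stood with the 6 genes in KO replicate 3. Of 15 tested, 12 were above every other library there, where 21.8% of all tested genes were, and 1 was below. At least 4 times the WT mean there were 6, where 0.411% of all tested genes were, and none in KO replicates 1 or 2. These were the EGF-like growth factor genes Areg (521 times) and Ereg (262 times), Pgr (29.4 times), Ptgs2 (28.4 times), Tnfaip6 (15.7 times) and Has2 (11.3 times). The other 9 ranged from 0.552 times the WT mean there (Runx2) to 3.635 times (the phosphodiesterase gene Pde4d). The transcription factor gene Runx2 had 33.97 CPM in KO replicate 3, below every other library (57.65 to 85.27 CPM), and its relative Runx1 was at 0.830 times the WT mean. Pde4d, Runx1 and Runx2 were named after their values were seen. In the KO against WT fit 0 of the 15 was called by edgeR (0 at an unadjusted p under 0.05) or by DESeq2, which gave no adjusted p for 6, with Areg, Ereg and Ptx3 of smallest p. Sult1e1 and Snap25 were too scarce to be tested.

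Markers of other cells stood apart in KO replicate 3 as well. Summed over 10 immune cell markers the level was 167 to 214.5 CPM in WT and 255, 194 and 136 CPM in KO replicates 1 to 3. The 8 endothelial markers summed to 140.4 to 177 CPM in WT and to 270.0, 187 and 127 CPM in KO. For 5 stromal fibroblast markers the sums were 620.5 to 761 CPM and 728, 631 and 404 CPM, and for 5 smooth muscle markers 192 to 214.0 CPM and 267, 209.5 and 179 CPM. In KO replicate 3, 9 of the 10 immune, 6 of the 8 endothelial, 5 of 5 stromal and 5 of 5 smooth muscle markers were below every other library, as were 21.6% of tested genes. Of the 10 granulosa cell markers 7 were above every other library there, as were 21.8% of tested genes, and 1 was below. None of these markers was at 0 counts in all libraries, and in bulk RNA fewer cells of a type cannot be told apart from less RNA per cell. Oocyte markers (8) summed to 614 to 808 CPM in WT and to 511, 498 and 558 CPM in KO, and red blood cell markers (4) to 328 to 678 CPM and to 1917, 1137 and 709 CPM. In KO replicate 3 both sums lay within the range of the other 5 libraries. The red blood cell marker Slc4a1 was called higher in KO by edgeR (log2 fold change 2.13 ± 0.32 SE, adjusted p = 0.0406) and by DESeq2. It was scarce, with 8, 9 and 17 counts in WT and 52, 46 and 40 in KO. Over all tested genes edgeR called 0.126% higher in KO. Of the oocyte markers 0 was called, but 7 of the 8 were at an unadjusted p under 0.05 by edgeR, where 9.16% of tested genes were, and 0 had a positive fold change. No immune, endothelial, stromal or smooth muscle marker was called. The summed level of the 6 genes was 233 to 397 CPM in WT and 266, 244 and 1589 CPM in KO. The part of cell composition in the levels of the 6 genes was not tested.

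Heat shock genes, which tissue dissociation is known to raise together with early response genes, stood slightly higher in KO replicate 3. Their 8 genes summed to 2564 to 2671 CPM in WT and to 2563, 2581 and 3055 CPM in KO replicates 1 to 3. In KO replicate 3, 7 of the 8 were highest, where 21.8% of tested genes were. The largest rises over the WT mean there were of Hspa1a and Hspa1b (1.48 times each), named after their values were seen. The median difference from the WT mean in KO replicate 3 was 0.24 on the log2 scale, against 3.59 for the 6 genes, which were chosen as high in that library. Those of smallest p in the KO against WT fit were Hspb1 (-0.20 ± 0.12 SE), Hspe1 (0.19 ± 0.12) and Hsph1 (0.06 ± 0.07), and 0 of the 8 was called by edgeR (0 at an unadjusted p under 0.05) or DESeq2. The part of cell handling in the levels of the 6 genes was not tested.

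**Figure D4:**
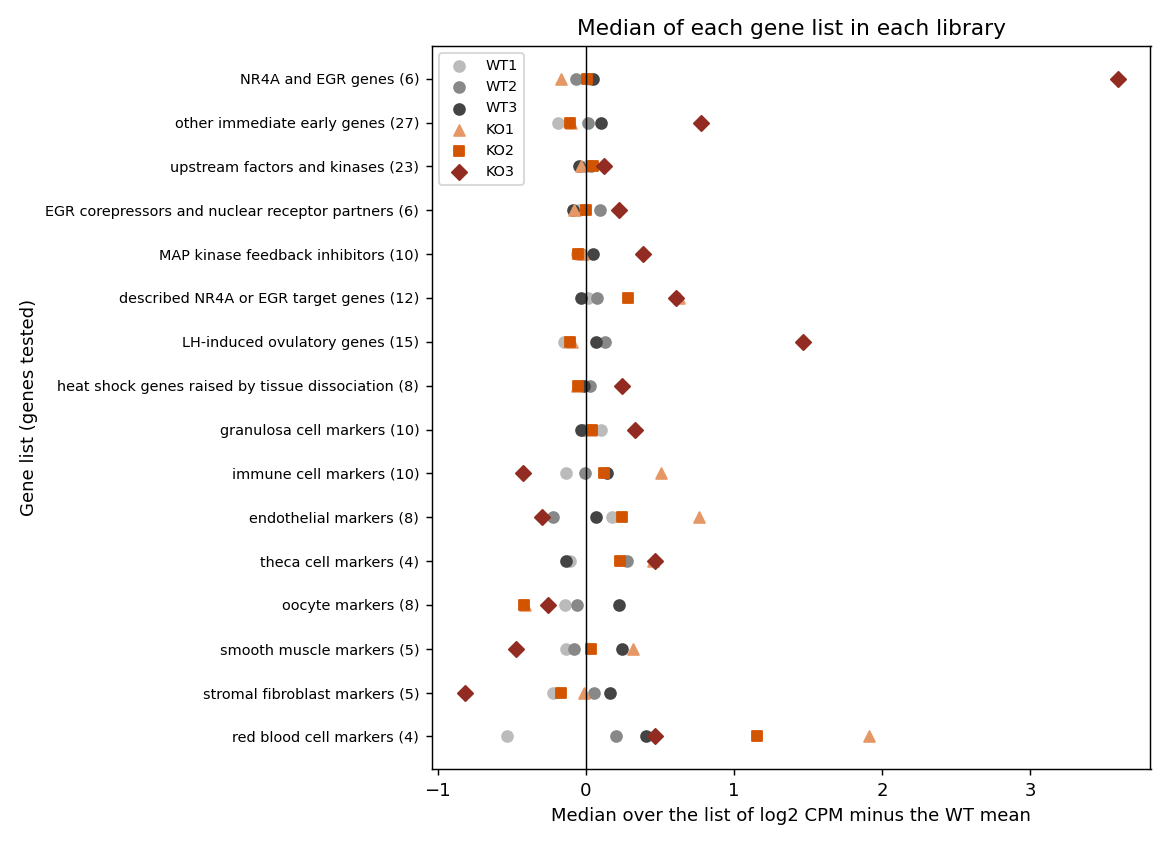
Median over each gene list of log2 CPM minus the WT mean, 1 point per library, with the number of genes tested in brackets. The 6 NR4A and EGR genes, chosen as high in KO replicate 3, lie at 3.59 there and within 0.17 of 0 in other libraries. Beside them are 0.78 for other immediate early genes and -0.82 for stromal fibroblast markers in KO replicate 3.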

How the data were processed

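RNA was measured in 6 libraries, 3 labelled WT and 3 labelled KO. The authors deposited raw read counts for each gene. The submitters' processing notes list the trimmer Trimmomatic 0.36, the aligner STAR 2.5.2b, the counter featureCounts (Subread 1.5.2) and the build GRCm38. For annotation release, strand setting and multi-mapping reads nothing is given in the sources used here. Gene IDs were named by GENCODE M21 (49056 matched, 259 did not), and no gene there overlaps any of the 6. With edgeR 4.0.16 (R 4.3.3), genes were kept by filterByExpr (18250, the 6 among them with at least 24 counts in every library), scaled by TMM, and KO was set against WT in a robust quasi-likelihood fit (glmQLFTest), p-values being adjusted by Benjamini-Hochberg over all genes kept. CPM are counts per 1000000 of the TMM-scaled library size, and log2 CPM used a prior count of 2. 1 CPM was 42.5 to 51.4 counts. On simulated data the test recovered most of the larger changes but missed most of the smallest ones, and more of its calls were false than the threshold allows, so the count of called genes is approximate.

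The 6 genes and the gene lists were chosen with earlier results of these data known. The rule named the 6 genes, Kdm6b, and of each list that is not of cell types the 3 of smallest p and those at 4 times the WT mean in a KO library. It also named the 3 genes nearest in profile to each of the 6. Markers are given by list, and those called are named. The labels do not say that replicates came from separate animals, so errors and p-values reflect only how these libraries differ, possibly for technical reasons. Alternatives were RLE scaling, unscaled library sizes, DESeq2 1.42.0, no filter, a prior count of 0.5, the replicate number as a block, and leaving out each library.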

Additional observations from a re-analysis of the deposited data

How the results depend on the processing

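Leaving out KO replicate 3 turned the direction of Egr1, Egr2 and Egr3, to log2 fold changes of -0.42, -0.55 and -0.24, as that fit lacks the library in which they were high. Over the other 5 fits that left out a library the fold changes lay between 2.28 and 2.94 for Nr4a1, 2.22 and 2.75 for Nr4a2, 5.12 and 5.80 for Nr4a3, 0.25 and 0.78 for Egr1, 2.12 and 2.69 for Egr2, and 1.89 and 2.54 for Egr3. None of the 6 genes was called under any alternative that gave it an adjusted p (DESeq2 gave one for Egr1 only, 0.958), with the lowest at 0.209 (Egr2 without KO replicate 3, edgeR). The 72 CPM values under other library scalings moved by less than the SD of their group. In KO that SD is widened by KO replicate 3 (405.3 CPM for Nr4a1), so KO values could hardly exceed it. For Nr4a1, 48.8 CPM in KO replicate 1 became 48.9 with RLE and 47.1 unscaled, and 763 CPM in KO replicate 3 became 761 and 742. The 18 differences of KO libraries under a prior count of 0.5 moved by less than the SD of log2 CPM among the WT libraries. The count of called genes, 40, was 199 with no filter, 221 with DESeq2 and 8 to 421 when a library was left out (17, 8 and 9 without WT replicates 1, 2 and 3, 26 without KO replicate 1 and 421 without KO replicate 3). The cause was not tested.

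With the replicate number as a block, 15 genes were called, and the fold changes of the 6 genes were 1.33, 1.26, 3.10, 0.22, 0.89 and 1.15 in the order Nr4a1, Nr4a2, Nr4a3, Egr1, Egr2, Egr3. The libraries share only a number: deviations of same-numbered libraries correlated at -0.0165, 0.074 and -0.0326, and not every library correlated best with its own number. Depth limits Nr4a3 and Egr3 most, with 24 to 57 counts outside KO replicate 3.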

Other observations

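Of 20 tested genes within 100000 bases of the 6 genes, most stood near their WT mean in KO replicate 3, with a median difference of 0.08 on the log2 scale and a range from -0.52 to 1.31. Both of the largest differences lay beside Nr4a1, and these genes were chosen after their values were seen. Atg101, an autophagy gene that starts 9509 bases downstream of Nr4a1 on the same strand, stood at 32.0, 35.6 and 32.7 CPM in the WT libraries, and the KO libraries had 35.1, 34.2 and 83.1 CPM. Grasp, which encodes a scaffold protein of membrane trafficking and ends 34091 bases upstream of Nr4a1, stood at 26.9, 26.9 and 23.7 CPM in the WT libraries, and the KO libraries had 26.0, 28.7 and 51.4 CPM. Acvr1b, farther upstream, stood at 29.0 to 32.3 CPM in the WT libraries, and the KO libraries had 33.0, 30.7 and 29.9 CPM. Genes beside Nr4a2, Nr4a3, Egr2 and Egr3 differed from their WT mean by at most 0.52 in either direction in KO replicate 3, and those beside Egr1 by at most 0.42.

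CRE half-sites were also counted in the promoter windows of the other lists. At least 1 was found for 13 of 20 other immediate early genes with a window, for 3 of 6 heat shock genes, for 4 of 8 MAP kinase inhibitors, for 6 of 14 LH-induced genes, for 7 of 19 upstream factors and kinases and for 2 of 6 corepressors and partners. It was 0 of 8 for the described NR4A or EGR target genes and 6228 of 27025 over all genes. In each of the 8 cell type lists 2 genes or fewer had one. No gene of these lists had 4, and 69 genes in all did, Nr4a1, Nr4a2 and Nr4a3 among them.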
